A study of Mus musculus with 4 samples.

Results

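The genes described here are the NF-kB family and its close regulators: the subunit genes Nfkb1, Nfkb2, Rel, Rela and Relb, and the regulator genes Nfkbia, Nfkbiz and Tnfaip3. They are 8 of the 21887 protein-coding genes of the RefSeq annotation of mm10 on the numbered chromosomes, X and Y. They were chosen by name. Every binding peak of the transcription factor Runx3 counted as theirs when its summit, the position of highest signal, lay in the gene span or within 10 kb of it. This gave 14 of 13166 peaks mapped by chromatin immunoprecipitation (ChIP) and 15 of 15891 peaks mapped by CUT&RUN, in which an antibody guides a nuclease to its target and only the nearby DNA is released.

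The cells were CD8 T cells that had been taken with anti-CD8a magnetic beads from the spleens of wild type adult mice. No strain or sex was given in the labels. The ChIP library was made with rabbit anti-Runx3 serum from 50000000 frozen cells pooled from 5 mice. The CUT&RUN library was made with the same serum, at the same dilution of 1 in 200, from 150000 fresh cells of 1 mouse. A whole cell extract was the control of the ChIP peak calling, and a CUT&RUN library with normal rabbit serum was not analysed here. With 1 library per assay there was no replicate, so the assays could not be tested against each other.

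NF-kB proteins bind DNA as dimers of the subunits. In resting cells inhibitor proteins hold them in the cytoplasm. Signals from the T cell receptor and from receptors of the tumour necrosis factor family lead to phosphorylation and destruction of the inhibitor, and the freed dimer enters the nucleus. Several genes of the family are themselves known targets of NF-kB, so that the pathway feeds back on itself. Runx3 is a DNA-binding factor needed for the CD8 T cell lineage, and its family recognises the letters TGTGGT, or ACCACA on the opposite strand. Peak lists show where the antibody enriched DNA. They do not show whether a gene was active.

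Of the 8 genes, 7 had a peak in each assay, and in the same 7 a ChIP peak and a CUT&RUN peak shared bases. Rela was the exception in both. By the same rule, 40.2% of all protein-coding genes had a ChIP summit, 45.1% had a CUT&RUN summit and 31.5% had such an overlap. Among the 16053 genes with spans between those of the shortest and the longest of the 8 (3239 and 107315 bp), the shares were 44.8%, 50.3% and 35.3%. The genes had a median of 2 peaks in each list, against 0 for all protein-coding genes. The T cell genes Cd3d, Cd3e, Cd3g, Cd8a and Cd8b1 all had peaks in both lists. In each list, 1 summit on chromosome 9 was the best ranked of both Cd3d and Cd3g (44986670 in ChIP, 44986693 in CUT&RUN). Among 2 CD4 lineage genes, Cd4 had peaks in both lists and Zbtb7b in CUT&RUN only. Among 2 natural killer cell genes, Klrb1c had peaks in both lists and Ncr1 in neither. Of 5 B cell genes, 3 had peaks in each, and of 5 myeloid genes, 1 had a peak in ChIP and 2 in CUT&RUN; the part of other cells in the results was not tested.

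**Figure D1:**
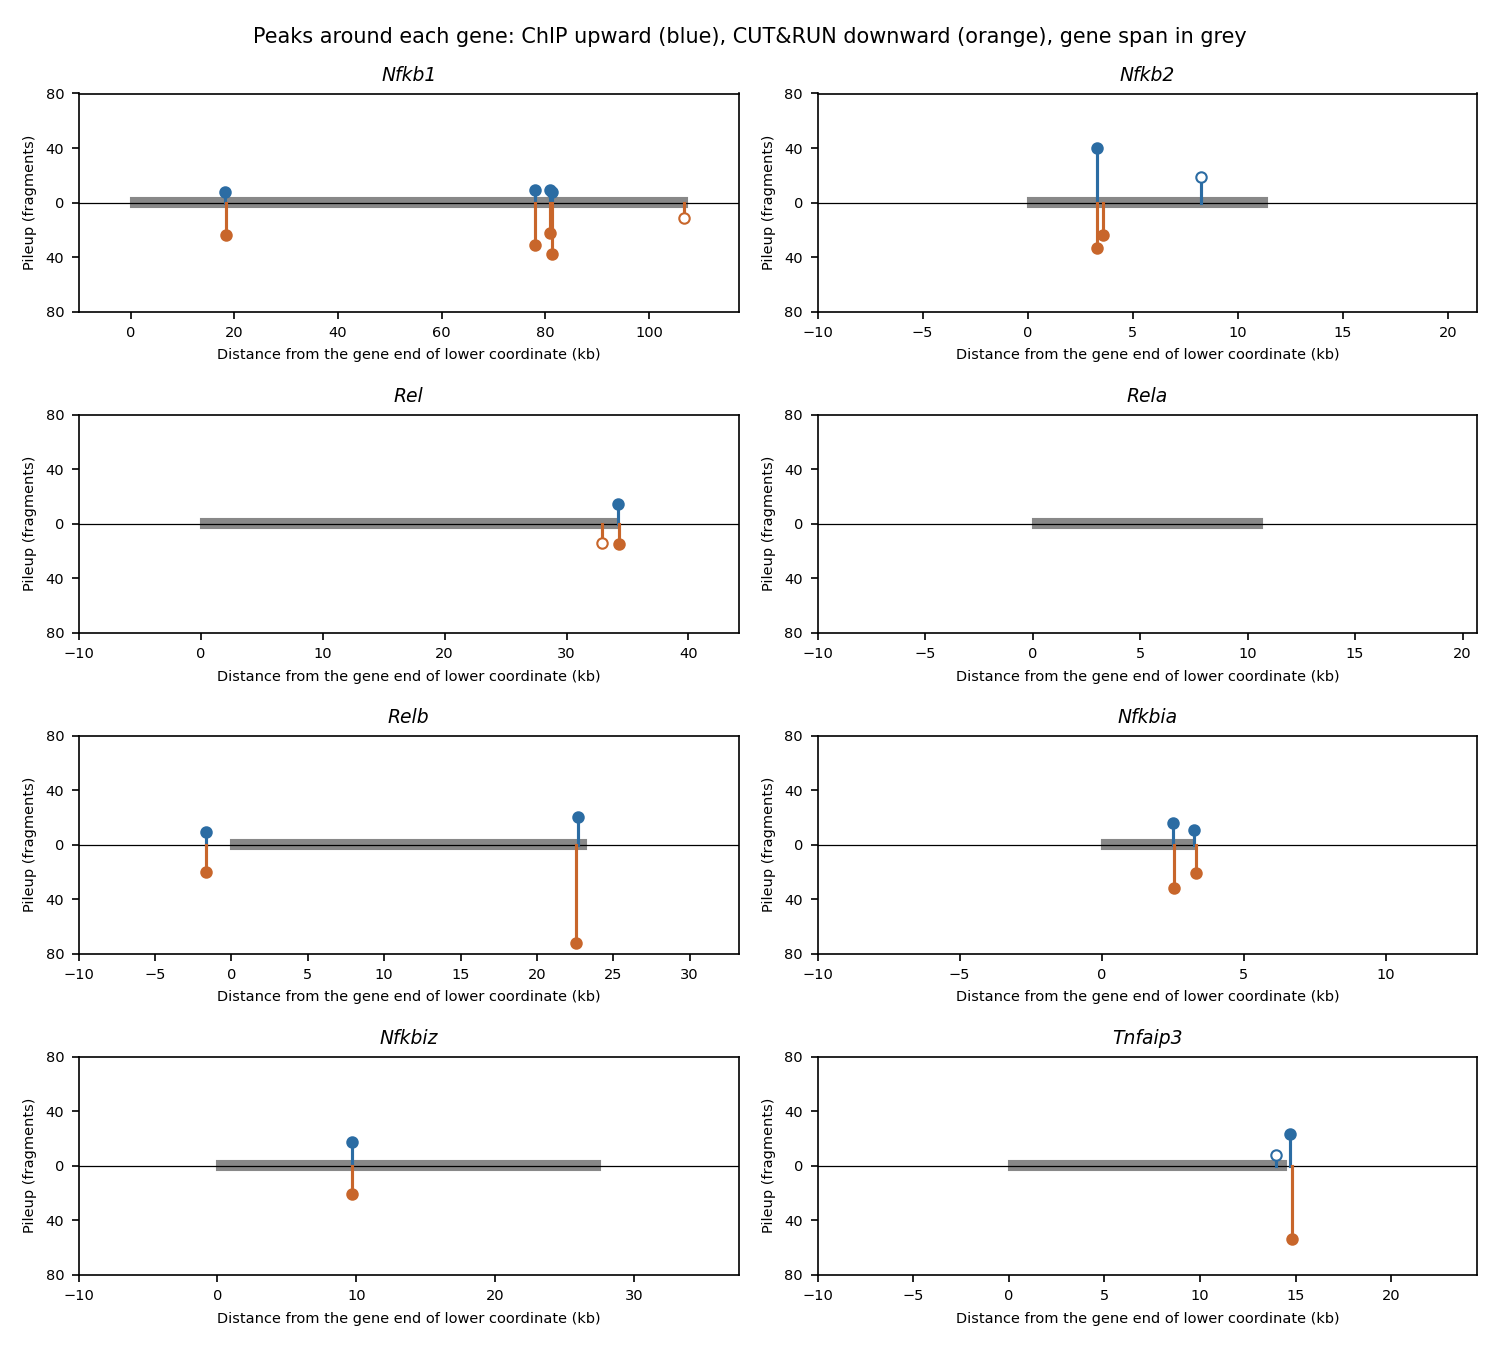
Summits around the 8 genes, by distance in kb from the gene end of lower coordinate (x axis), with the pileup in fragments as stem height (y axis). ChIP stems point up in blue and CUT&RUN stems point down in orange; filled heads overlap a peak of the other list, the grey bar is the gene span, and Rela has no stem.

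The sequences upstream of 5 of the genes are shown because peaks or their absence can be read against them. RefSeq promoter windows, on GRCm38.p6, were matched for Nfkb2, Rel, Rela, Nfkbia and Tnfaip3. Nfkb1, Relb and Nfkbiz had no entry. Each line gives the 250 bases before the start site, 5′ to 3′ on the strand of the gene, and for Nfkb2 and Tnfaip3 the first of several windows. The first window of Nfkb2 lies inside the gene span, whose edge is further upstream. Capitals mark a kB motif, the kind of site that NF-kB binds, and in Rel also the RUNX motif TGTGGT. The kB motif searched was 3 G, a pair of variable letters (AC, GA, AA or GC), 3 T and 2 C, on both strands; on the opposite strand it begins with GGAAA.

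The stretches are chr19:46304487-46304736 (plus strand) for Nfkb2, chr11:23770970-23771219 (minus strand) for Rel, chr12:55492648-55492897 (minus strand) for Nfkbia, chr10:19015411-19015660 (minus strand) for Tnfaip3 and chr19:5637291-5637540 (plus strand) for Rela.
Nfkb2: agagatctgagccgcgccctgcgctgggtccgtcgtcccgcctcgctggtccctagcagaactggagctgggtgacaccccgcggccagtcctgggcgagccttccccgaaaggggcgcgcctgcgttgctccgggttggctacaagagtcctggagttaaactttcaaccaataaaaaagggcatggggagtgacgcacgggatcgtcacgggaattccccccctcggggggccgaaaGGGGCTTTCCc
Rel: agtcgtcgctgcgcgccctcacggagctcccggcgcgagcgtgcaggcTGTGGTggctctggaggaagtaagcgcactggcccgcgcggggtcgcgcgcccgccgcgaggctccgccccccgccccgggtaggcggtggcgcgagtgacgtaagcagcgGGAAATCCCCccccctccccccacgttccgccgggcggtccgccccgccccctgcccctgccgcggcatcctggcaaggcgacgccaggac
Nfkbia: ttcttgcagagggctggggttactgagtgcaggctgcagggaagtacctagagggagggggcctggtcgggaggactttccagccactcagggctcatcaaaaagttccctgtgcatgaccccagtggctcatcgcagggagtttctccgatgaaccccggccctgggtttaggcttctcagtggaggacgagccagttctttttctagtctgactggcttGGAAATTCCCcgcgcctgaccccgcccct
Tnfaip3: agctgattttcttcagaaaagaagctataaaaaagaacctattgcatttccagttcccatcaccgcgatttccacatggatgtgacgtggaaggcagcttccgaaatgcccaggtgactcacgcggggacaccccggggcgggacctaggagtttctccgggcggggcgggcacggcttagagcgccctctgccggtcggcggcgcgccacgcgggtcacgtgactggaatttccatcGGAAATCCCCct
Rela: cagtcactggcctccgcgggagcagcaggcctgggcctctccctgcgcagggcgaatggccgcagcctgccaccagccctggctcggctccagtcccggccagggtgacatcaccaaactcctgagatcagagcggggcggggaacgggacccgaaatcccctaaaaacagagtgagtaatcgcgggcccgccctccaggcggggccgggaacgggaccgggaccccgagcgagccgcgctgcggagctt

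The promoters of 4 of these 5 genes were overlapped by a peak of each list, again all but that of Rela. Over all protein-coding genes in the table, 20.9% had a promoter window of 300 bases overlapped by a ChIP peak, 25.1% by a CUT&RUN peak and 15.9% by both. The same 4 genes held a kB motif in a window, against 0.481% of all 32851 windows and 0.551% of all 27025 genes with a window. The kB letters began 11 bases before the start site in Nfkb2, 12 in Tnfaip3, 29 in Nfkbia and 91 in Rel. A further kB motif of Nfkb2 began at 46305705, inside its other 2 windows. Of the sites in the printed stretches, that of Nfkbia lay inside a peak of both lists, those of Rel and Tnfaip3 lay inside the ChIP peak only, and that of Nfkb2 lay outside the peaks.

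The RUNX motif was found in 1 of the 5 genes, Rel, where it began 202 bases before the start site. It lay inside both peaks, 52 bp from the CUT&RUN summit and 132 bp from the ChIP summit. TGTGGT was present in 16.8% of all windows and in 17.3% of the windows that a ChIP peak overlapped and 14.8% of those that a CUT&RUN peak overlapped. So 1 of 5 genes is near the share of all genes with a window (18.9%). No match was found in the windows of Nfkb2, Nfkbia, Tnfaip3 and Rela. The windows cover only a part of some peaks: 26.4% of the bases of the ChIP peak at Nfkb2, 25.2% at Nfkbia, 65.5% at Tnfaip3 and 81.9% at Rel.

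**Figure D2:**
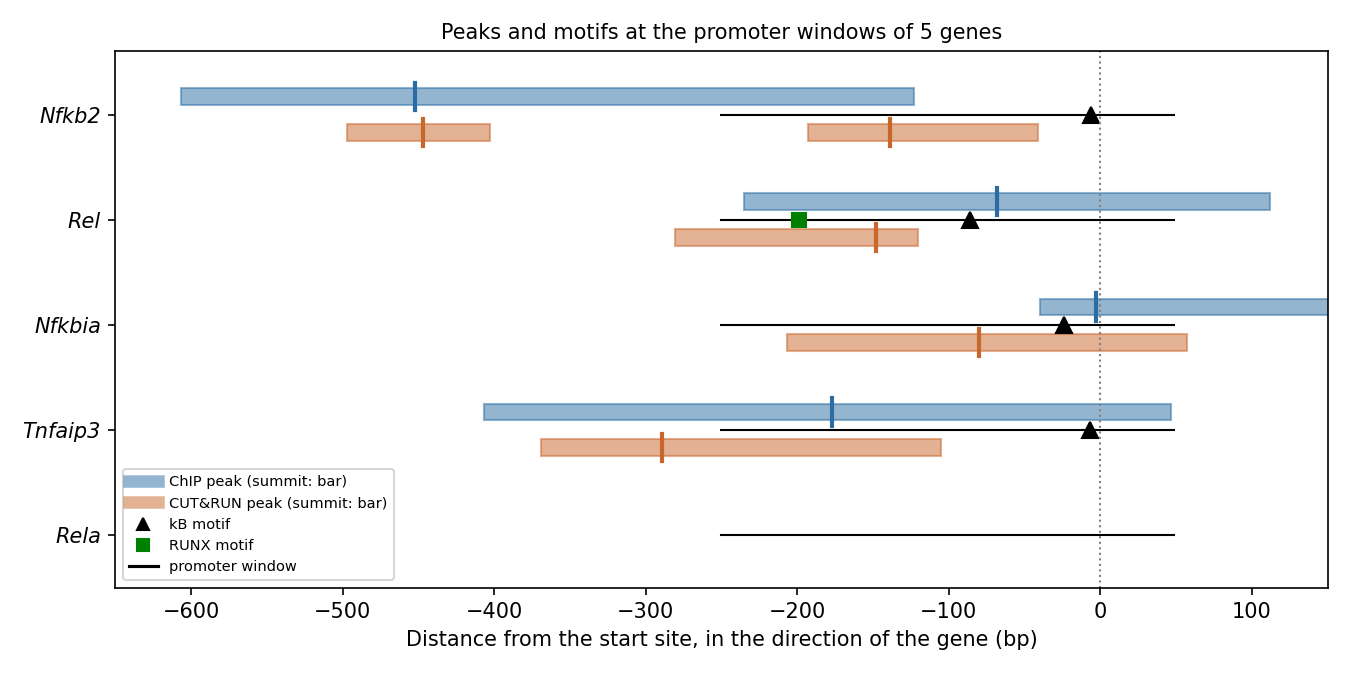
Peaks and motifs at the promoter windows of Nfkb2, Rel, Nfkbia, Tnfaip3 and Rela, by distance in bp from the start site in the direction of the gene (x axis, 1 row per gene). Boxes are peaks and bars in them summits (ChIP blue, CUT&RUN orange), triangles are kB motifs and the square is the RUNX motif, 202 bases before the start of Rel; peaks of the first 4 genes reach into the windows and Rela has none.

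Among the subunits, Nfkb2 had the strongest ChIP peak of the 8 genes. Nfkb2 encodes a precursor that is cut to the subunit of the noncanonical pathway. The summit lay at chromosome 19, 46304285, inside the RefSeq span and 3291 bp from its nearer edge, with a pileup of 40 fragments (95% Poisson interval 28.6 to 54.5). It was 452 bp before the first start site that has a promoter window. The pileup is the number of fragments over the summit after duplicate removal. Ranked by the caller's q, this peak stood in the top 1.72% of the ChIP list, and 0.996% of protein-coding genes had a best ChIP peak as strong.

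In CUT&RUN the same place was less prominent within its list. The CUT&RUN summit at 46304290 lay 5 bp from the ChIP summit, with a pileup of 33 (22.7 to 46.3), in the top 34.5%. A second CUT&RUN peak at 46304598, with a pileup of 24 (15.4 to 35.7), lay 139 bp before that start site and overlapped the same broad ChIP peak of 485 bp. The ChIP peak further into the gene, at 46309242, had a pileup of 19 (11.4 to 29.7) and no CUT&RUN partner. The span of Nfkb2 (46300994 to 46312400) overlaps the noncoding gene 4833438C02Rik (46303585 to 46305629), in whose span the first ChIP summit also lay.

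Nfkb1, which encodes the precursor of the subunit that pairs with Rela or Rel in the canonical pathway, had the most peaks of the 8 genes, all of them weak in ChIP. It held 4 ChIP peaks and 5 CUT&RUN peaks in a span of 107 kb (chromosome 3, 135584655 to 135691969). All 4 ChIP peaks overlapped a CUT&RUN peak, which 1.30% of protein-coding genes of all spans matched or exceeded in number. The span of Nfkb1 is the longest of the 8, and a longer span can hold more summits. The share among genes of similar span is not given here. None of the 4 ChIP peaks reached a q of 1e-05, the threshold of the CUT&RUN list. The ChIP pileups were 8, 9, 9 and 8 at 135602906, 135662745, 135665576 and 135665857. Each has a Poisson interval from about 3.45 or 4.12 up to 15.8 or 17.1, so the 4 cannot be ordered.

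In CUT&RUN the partners of these peaks had pileups of 24 (15.4 to 35.7), 31 (21.1 to 44.0), 22 (13.8 to 33.3) and 38 (26.9 to 52.2), in the same order. Of these, 3 ranked above the midpoint of the CUT&RUN list, whereas all 4 ChIP peaks ranked below the midpoint of theirs. ChIP peaks with a pileup of 8 share their q with 1498 peaks of ranks 10997 to 12494, so a place among them has no meaning. Of the 4 pairs, 3 lay close together inside the gene, with ChIP summits 2831 bp and 281 bp apart. The remaining CUT&RUN peak, at 135691435 and 534 bp inside an edge of the gene, had a pileup of 11 (5.49 to 19.7) and no ChIP partner.

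Rel encodes c-Rel, the subunit most typical of lymphocytes. It had a single ChIP peak, whose summit at chromosome 11, 23771037 lay 68 bp before the start site, with a pileup of 14 (7.65 to 23.5), in the top 33.8% of the list. Its CUT&RUN partner at 23771117 lay 148 bp before the start site, with a pileup of 15 (8.40 to 24.7), among the weaker peaks of that list (top 86.3%). Another CUT&RUN peak, at 23769728 and 1241 bp into the gene, had a pileup of 14 and no ChIP partner.

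Relb encodes the subunit that pairs with the product of Nfkb2. It had the strongest CUT&RUN peak of the 8 genes, at chromosome 7, 19628788, 650 bp inside an edge of the gene. The pileup was 72 (56.3 to 90.7), in the top 10.1% of the list. The ChIP summit lay 91 bp away at 19628879, with a pileup of 20 (12.2 to 30.9), in the top 16.8%. The other pair of the Relb window, with pileups of 9 in ChIP and 20 in CUT&RUN, lay closer to the neighbouring gene Clasrp: 55 and 15 bp from it, against 1645 and 1685 bp from Relb. Both summits also lay in a promoter window of Clasrp.

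Rela encodes the main activating subunit of the canonical pathway. Neither list had a summit in its span (chromosome 19, 5637442 to 5648134) or within 10 kb. The nearest summit was 35.6 kb away in CUT&RUN and 65.4 kb away in ChIP. The Rela window had a GC content of 71.3% and 31 CpG pairs, within the range of the first windows of the other 4 genes (56.7% to 75% and 15 to 42). At this depth, a peak below the calling thresholds would not be listed.

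Among the regulators, Nfkbia, the gene of the inhibitor IkB alpha, carried 2 pairs of peaks in or just beside its short span (chromosome 12, 55489409 to 55492647). The pair at the start had summits 3 bp (ChIP) and 80 bp (CUT&RUN) before the start site, with pileups of 11 (5.49 to 19.7) and 21 (13.0 to 32.1). The pair inside the gene, 731 and 703 bp after the start site, had the higher pileups, 16 (9.15 to 26.0) and 32 (21.9 to 45.2). The intervals of the 2 places overlap in each assay.

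Tnfaip3 encodes a ubiquitin-editing enzyme that ends NF-kB signalling. The ChIP summit at chromosome 10, 19015587 lay 177 bp before the start site, with a pileup of 23 (14.6 to 34.5), and the CUT&RUN summit at 19015699 lay 289 bp before it, with a pileup of 54 (40.6 to 70.5). Tnfaip3 was high in both lists, in the top 10.5% of ChIP and the top 13.9% of CUT&RUN. A weak ChIP peak at 19014871, 539 bp into the gene, had a pileup of 8 (3.45 to 15.8) and no CUT&RUN partner.

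Nfkbiz encodes a nuclear relative of the inhibitors that acts as a cofactor at some NF-kB targets. It had 1 peak in each list, at chromosome 16, 55821060 in ChIP and 55821099 in CUT&RUN, 39 bp apart and 9685 and 9724 bp inside an edge of the gene. The pileups were 17 (9.90 to 27.2) and 21 (13.0 to 32.1), in the top 22.7% and the top 59.9%.

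**Figure D3:**
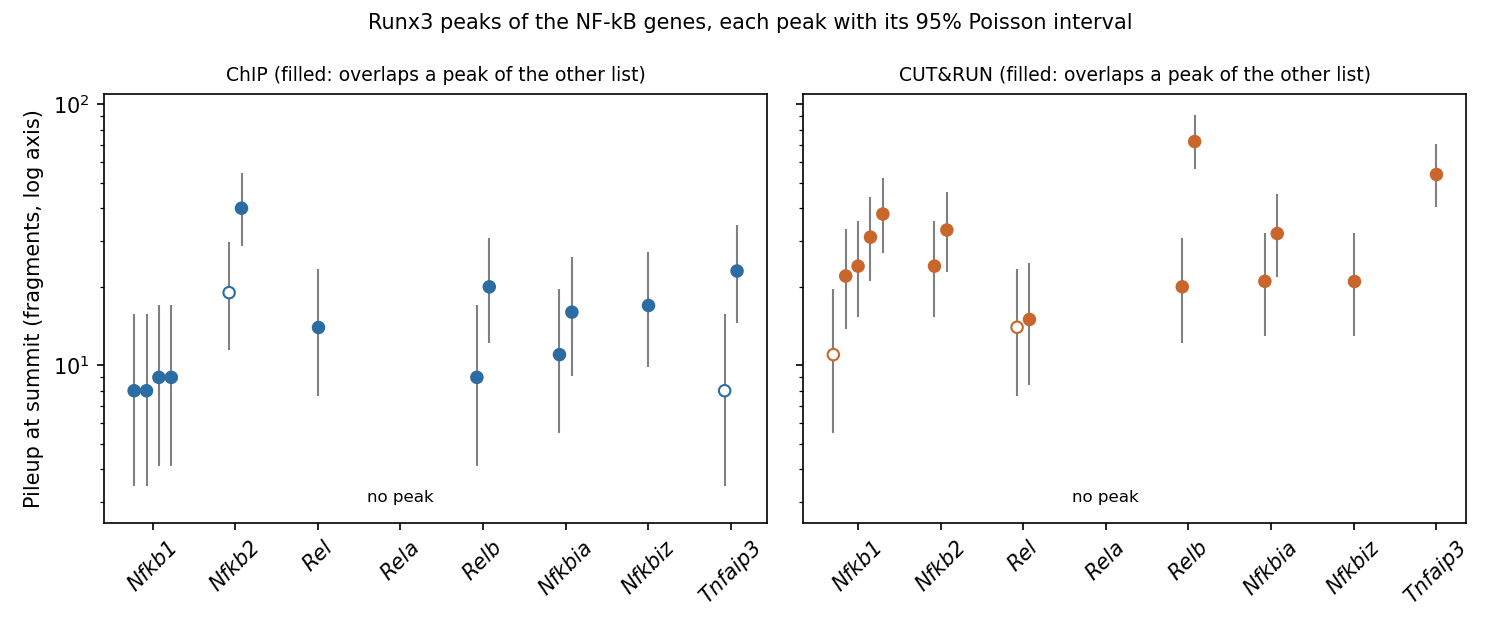
Pileup of each peak in fragments (y axis, log scale) for the 8 genes (x axis), ChIP on the left and CUT&RUN on the right, with 95% Poisson intervals; filled points overlap a peak of the other list. Nfkb2 leads in ChIP with 40 and Relb in CUT&RUN with 72, and pileups of the assays are not on a common scale.

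Over all 8 genes, 12 of the 14 ChIP peaks had a partner in CUT&RUN (85.7%, 95% Clopper-Pearson interval 57.2 to 98.2), against 66.2% of the whole list. For CUT&RUN, 13 of 15 had a partner in ChIP (86.7%, 59.5 to 98.3), against 58.8%. The interval for ChIP takes in the share of the whole list, and the lower bound for CUT&RUN is just above it. Without the peak beside Clasrp, 12 of 14 CUT&RUN peaks had a partner. The lower bound for that count is 57.2%, below the 58.8% of the whole list. Peaks of 1 gene share their locus, and intervals cover counting error only. The ChIP pileups of the 8 genes ran from 8 to 40 with a median of 12.5, against a list median of 12, and the CUT&RUN pileups from 11 to 72 with a median of 24, against 25. Their peaks were therefore of middling height in both lists. The median width of their ChIP peaks was 351.5 bp, against 261 bp in the list, and that of their CUT&RUN peaks 153 bp, against 147 bp.

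The overlapping peaks formed 13 pairs, with summits a median of 70 bp apart (range 5 to 313), and 10 pairs lay within 100 bp. From each overlapping peak to its nearest partner summit, the median gap was 55 bp for ChIP and 70 bp for CUT&RUN. Over the whole lists these medians were smaller, 35 and 38 bp. The better rank within its list was the ChIP one in 7 pairs and the CUT&RUN one in 6. The pairs of Nfkb2, Rel, Nfkbia and Nfkbiz stood higher in ChIP, as did that of Tnfaip3 by a little, and all those of Nfkb1 and Relb stood higher in CUT&RUN. The Nfkb1 pair with the ChIP summit at 135665576 stood at 78.8% in ChIP and 76.4% in CUT&RUN. Its ChIP q is shared by 1550 peaks of ranks 9408 to 10957, so the order of this pair has no meaning. The ranks are places in separate lists, called at different thresholds, and the difference was not tested.

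**Figure D4:**
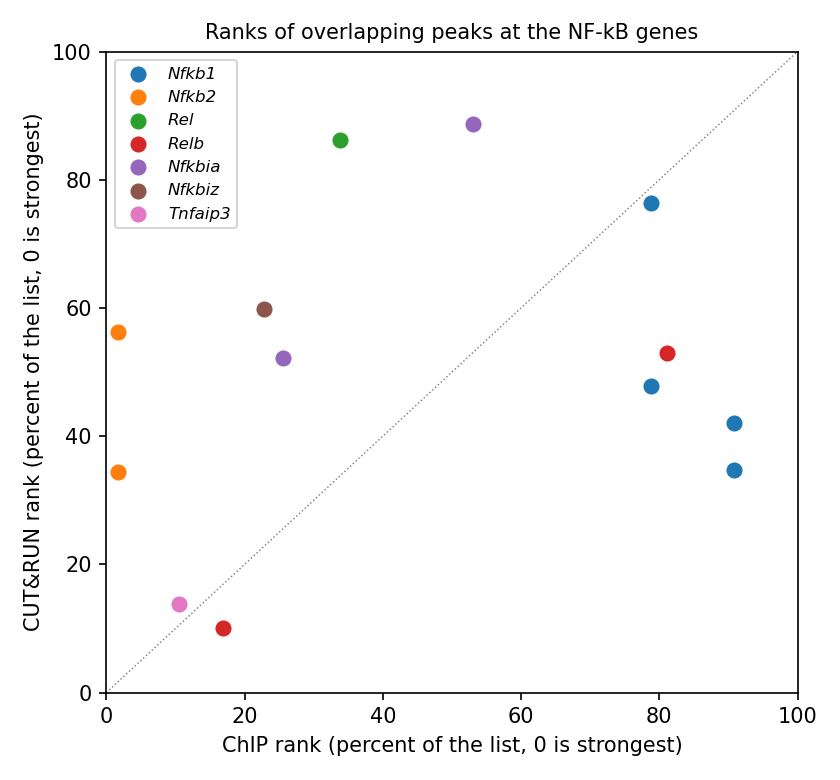
Rank of each of the 13 overlapping pairs as percent of the ChIP list (x axis) and of the CUT&RUN list (y axis), 0 being the strongest, coloured by gene. Tnfaip3 and the stronger pair of Relb lie in the lower left, high in both lists, and the pairs of Nfkb1 lie on the right below the dotted line of equal rank.

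The caller's expected background differed between the CUT&RUN peaks. The deposited fold gives it as (pileup + 1) divided by fold, which equals the background plus 1. In ChIP this value was 2.12 at all 14 peaks, so the ChIP order follows pileup alone. In CUT&RUN, where it came from 10 kb around each peak, it ran from 1.54 at the Relb peak beside Clasrp to 3.49 at the strong Relb peak, with a list median of 1.89. At Nfkbia it was 3.31 at both peaks, and the pileup of 32 there stood in the top 52.3%. At Nfkb2 it was 2.13, and a pileup of 33 stood in the top 34.5%. The part of the background in these ranks was not tested.

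Other genes of the pathway were read by the same rule, in lists arranged by role, and their pileups are those of each gene's best ranked peak. All 5 further inhibitors and nuclear IkB genes (Nfkbib, Nfkbie, Nfkbid, Bcl3 and Nfkbil1) had overlapping peaks of the lists. The best were Bcl3, a nuclear cofactor of NF-kB dimers, with best pileups of 32 (21.9 to 45.2) in ChIP and 94 (76.0 to 115) in CUT&RUN, Nfkbib, the gene of IkB beta, with 31 and 65, and Nfkbie, the gene of IkB epsilon, with 18 and 28. Of 8 genes of the kinases and adaptors around IKK, the kinase complex that marks the inhibitors for destruction, 6 had a ChIP peak and all 8 a CUT&RUN peak. Birc2, a ubiquitin ligase that keeps the noncanonical kinase low, led with 36 (25.2 to 49.8) and 75 (59.0 to 94.0), before its partners Traf2 (23 and 109) and Birc3 (23 and 70). Chuk and Ikbkg, genes of IKK subunits named after their values were seen, had no ChIP peak. In CUT&RUN their best pileups were 10 and 37. Ikbkb, also a gene of an IKK subunit, had overlapping peaks with pileups of 19 in ChIP and 83 in CUT&RUN.

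Of 8 ubiquitin-editing genes, 6 had a ChIP peak and 6 a CUT&RUN peak, not all of them the same genes, and 5 had overlapping peaks. They were led by Otulin, which removes linear ubiquitin chains, with 26 in ChIP and 123 in CUT&RUN, then Tax1bp1 (19 and 83) and Tnip3 (15 and 27). Rnf11 had none. Of 7 genes that link the antigen receptor to IKK, 3 had a ChIP peak and 4 a CUT&RUN peak. They were led by Prkcq, the kinase of this arm in T cells, with 9 ChIP and 11 CUT&RUN peaks and best pileups of 25 and 83, then the adaptor gene Bcl10 (23 and 103) and the kinase gene Map3k7, with a ChIP pileup of 8 and no CUT&RUN peak. Tab2 and Traf6 had no peak in either list. Of 8 genes of linear ubiquitin and the tumour necrosis factor receptor complex, 5 and 6 had peaks, led by Sharpin (35 and 86), Rnf31 (20 and 36) and Tnfrsf1b (19 and 103), and Rbck1 and Ltbr had none. Over these 36 genes, 25 (69.4%) had a ChIP peak and 29 (80.6%) a CUT&RUN peak, against the 40.2% and 45.1% of all protein-coding genes. Overlapping peaks of the lists were found at 21 (58.3%), against 31.5%. These shares were not matched for gene span.

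**Figure D5:**
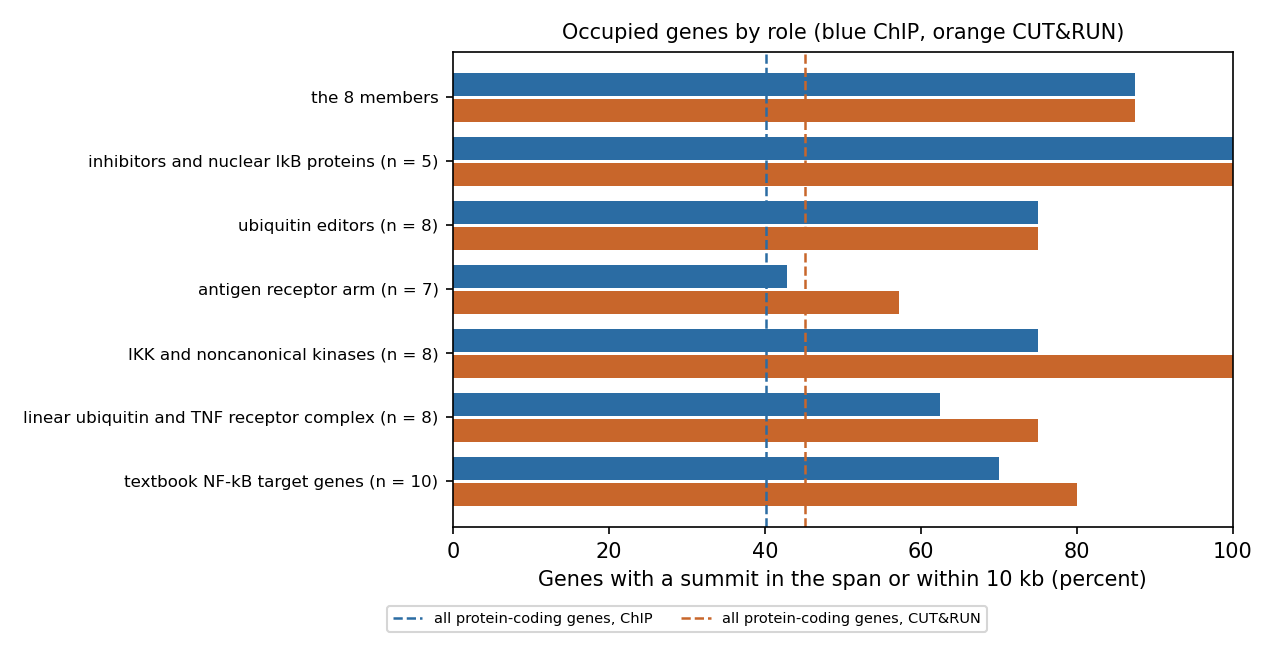
Percent of genes with a summit in the span or within 10 kb (x axis), for the 8 genes and the lists of other pathway genes (y axis), ChIP in blue and CUT&RUN in orange. Dashed lines give the shares of all protein-coding genes, 40.2% and 45.1%, and each bar ends beyond its line.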

How the data were processed

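The sources were 2 deposited peak lists, 1 for each anti-Runx3 library. Per the submitters' processing notes, Bowtie aligned reads to mm10 and MACS2 called peaks (no aligner version is given in the sources used here). MACS2 2.1.1.20160309, per the file headers, used paired fragments and kept 1 per position, leaving 9532996 of 48285251 ChIP fragments and 14068364 of 17896991 CUT&RUN fragments. Losing 80.3% of ChIP fragments to duplicates limits its pileups. ChIP was called at q of 0.05 against whole cell extract, and CUT&RUN at q of 1e-05 with no control, on an alignment whose name refers to nucleosome-free fragments.

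The deposited values are the pileup (a coverage signal in fragments), −log10 p and q, and the fold (a ratio to expected background). They are each peak's own values, used within a list. Positions count from 1. Peaks were ranked by q, then pileup, then number. Overlap meant at least 1 bp. Genes and 32851 promoter windows (250 bases before to 50 after each start) came from RefSeq GRCm38.p6. All 8 genes and all 46 other pathway genes matched by symbol; 1 further pathway gene is not reported here. Orientation was checked on 1683 overlapping windows of opposite strand, and all matched. Gene counting and motif search were tested on simulated data, and the overlap search was checked against a direct search on real peaks. Python 3.11.15, pandas 2.3.3 and scipy 1.17.1 were used. Poisson and Clopper-Pearson intervals are exact and cover counting error only, since there was 1 library per assay.

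The 8 genes and the lists were chosen with earlier results of these data known. All 8 are named. Of other lists, the 3 best ranked in ChIP and those without any peak are named, with Chuk, Ikbkg and Ikbkb added after their values were seen. The planned motif search in whole peaks was not made, since no genome sequence was used here.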

Additional observations from a re-analysis of the deposited data

How the results depend on the processing

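With the stronger 50% of each list, the genes kept 7 ChIP and 6 CUT&RUN peaks; CUT&RUN then covered 4 genes and 3 genes had peaks in both lists, while ChIP covered 6. The overlapping shares fell to 42.9% of ChIP and 50% of CUT&RUN peaks, where by construction fewer partners are left. When ChIP peaks had to reach a q of 1e-05, 8 ChIP peaks at 6 genes remained (Nfkb1 lost all of its ChIP peaks), and 53.3% of CUT&RUN peaks overlapped one. The shares of the whole lists at these stricter settings are not given here, so the lower shares cannot be set against them. Within 50 kb there were 24 ChIP and 29 CUT&RUN peaks, and Rela gained CUT&RUN peaks only. With gene spans alone, 6 genes had a peak in each list and 5 in both. A looser pattern (TGNGGT, any base in the N place) was found in 3 of 5 genes instead of 1. Its shares were 49.1% of all genes with a window and 45.8% of all windows. Besides TGTGGT in Rel, the matches were TGGGGT in Nfkbia and TGAGGT in Tnfaip3, letters that the strict RUNX motif leaves out. The match of Tnfaip3 lay in its second window, which no peak overlapped. Requiring 50% of the shorter peak, or summits within 100 bp, left 7 and 6 genes with a shared peak. Leaving out summits nearer to another protein-coding gene, an alternative chosen after seeing the data, removed the pair beside Clasrp and no gene. ChIP pileups of 8 and 9 have wide counting intervals.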

Other observations

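Of 10 textbook target genes of NF-kB, 7 had a ChIP peak and 8 a CUT&RUN peak, against 40.2% and 45.1% of all protein-coding genes by the same rule. Il2ra, a chain of the interleukin receptor, led with best pileups of 41 (29.4 to 55.6) in ChIP and 106 (86.8 to 128) in CUT&RUN, followed by Traf1, a signalling adaptor (40 and 124), and Bcl2l1, a survival gene (27 and 123). Il2 and Cxcl10 had no peak in either list.

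Of all 158 promoter windows with the kB motif, 24.1% were overlapped by a ChIP peak and 25.3% by a CUT&RUN peak, against 14.0% and 16.7% of all windows. A core ETS motif (CCGGAA), searched after the other results were seen, was in 36.0% of the windows that a ChIP peak overlapped and 14.9% of all windows, and in none of the 8 windows of the 5 genes. Windows with a ChIP peak had a median GC content of 62.7%, against 52.7% over all windows, and the part of base composition in these shares was not tested.

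Nfkb1, the gene with the most overlapping ChIP peaks, was compared with 1244 protein-coding genes of similar span on 4 numbers: the peaks of each list and the overlapping peaks of each list. Rbm33, Lonp2 and Iffo2 had the same 4 numbers and the nearest spans, among 6 genes with no difference.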
